A study of Mus musculus with 8 samples.

Results

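Splicing and RNA-binding factors were followed in the EDL (extensor digitorum longus, a toe-extending muscle made mostly of fast fibres) of 7-month-old Sod1 knockout mice (sod-/-, which lack the copper-zinc superoxide dismutase of the cytosol) and of wild-type mice of the same age. The genes were taken by the start of their symbol (Sf3, U2af, Srsf, Hnrn, Snrp, Lsm, Prpf, Ddx, Dhx, Rbm, Celf or Mbnl, and the older forms of these names), without Y-linked genes, and the probe of highest mean over the arrays stood for each gene. There were 116 such genes among the 7053 genes with a named probe, and they carried 156 of the 9232 probes. The series set out to describe how muscle transcription answers lasting oxidative stress, and it held 4 knockout and 4 wild-type Illumina bead arrays, 8 in all. The labels name no strain or sex. They also leave unsaid whether each array stands for an animal of its own, so a p-value here reflects the spread among these 8 samples, which may be technical. Sod1 itself was not analysed here, so the genotypes rest on the labels alone.

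Most mouse genes are transcribed with introns, and the spliceosome removes them. It is built from small nuclear ribonucleoproteins (snRNPs), each a small nuclear RNA with a ring of Sm or LSm proteins and some proteins of its own. SF3 and U2AF proteins recognise the branch site and the end of the intron, PRPF proteins join the snRNPs into the working enzyme, and DEAD and DEAH box helicases remodel RNA and RNA-protein complexes in splicing, ribosome assembly, translation and decay. SR proteins and hnRNPs bind exons and introns and favour or oppose their inclusion, and RBM proteins are a mixed group with RNA recognition motifs. In muscle, MBNL and CELF proteins act on many of the same transcripts in opposite directions and are best known from myotonic dystrophy, in which MBNL proteins are sequestered. The arrays measured the abundance of these factors' own transcripts, not the splicing they carry out.

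Values are log2 intensities, and a difference is the knockout mean minus the wild-type mean on that scale. A probe was tested when 4 or more of the 8 arrays, of either genotype, gave it a value over their own median. By this filter 74 of the 116 genes were tested and 42 were not. Of all 116 genes, 66 lay above the median in all 8 arrays and 35 in none. The 42 untested genes had mean log2 intensities from 4.34 to 6.91 and differences from -0.76 to 0.73, with 18 higher and 24 lower in the knockout. Bulk muscle RNA was measured, so fewer cells of a type and less RNA per cell cannot be told apart.

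Across tested probes, which are not independent replicates, pairs of knockout arrays had Pearson correlations of 0.911 to 0.969, pairs of wild-type arrays 0.906 to 0.968, and mixed pairs 0.863 to 0.97. Wild-type replicate 2 was the array least like the rest. Its median correlation with the other arrays was 0.919, against 0.927 to 0.941 for each of the others. The 10 fibre markers, among them Ckm, Acta1 and Pvalb, lay above the median in all 8 arrays, and the 5 macrophage markers on the array lay below it in all 8, with a higher mean in the knockout for 4 of them and a mean difference of 0.26. All 7 endothelial markers had a lower mean in the knockout. Their mean log2 intensity ran from 6.52 to 6.96 in knockout arrays and from 6.77 to 7.28 in wild-type arrays, 4 of them were tested and 0 passed. The 3 red blood cell markers were also lower, at 8.02 to 8.70 in knockout arrays and 8.44 to 9.26 in wild-type arrays, and the 2 fibroblast markers stood at 9.57 to 10.04 in knockout arrays and 9.65 to 10.13 in wild-type arrays. The 2 Schwann cell markers, the 1 adipocyte marker and the 4 satellite cell markers had mean differences of -0.47, -0.56 and -0.14, and the 1 lymphocyte marker, below the median in all 8 arrays, differed by 0.21. The Schwann cell markers were unlike each other, with Pmp22 at -0.86 and Mbp at -0.08. Of the satellite cell markers, Des was higher, by 0.13, and Cdh15, Itga7 and Vcam1 were lower, by -0.19, -0.15 and -0.36. The part of these cells in the results below was not tested.

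No splicing or RNA-binding gene differed between the genotypes beyond the threshold. With limma and Benjamini-Hochberg adjustment over all 4698 tested probes, 0 of the 74 tested genes had an adjusted p under 0.05, as did 0 of all 3822 tested genes (0%), and the smallest adjusted p among the 74 was 0.457. At an unadjusted p under 0.05 there were 11 of the 74 genes, or 14.9%, against 9.34% of all tested genes. The 3 higher in the knockout were Hnrnpa2b1, Hnrnpa3 and Srsf5, 4.05% of the 74 against 4.32% of all tested genes. Hnrnpa3 passed the filter with only 4 arrays above the median, knockout replicates 2 to 4 and wild-type replicate 1. The 8 lower ones were Ddx18, Ddx20, Ddx21, Ddx24, Ddx3x, Dhx15, Lsm14a and Sf3b5, 10.8% against 5.02%. The median difference over the 74 genes was -0.04, and over all tested genes it was also -0.04. With 1 array left out at a time, the first ran from -0.12 (without wild-type replicate 1) to -0.05 and the second from -0.04 to -0.02. Of the 74, 46 had a lower mean in the knockout, or 62.2%, and 28 a higher one; among all tested genes 56.1% were lower. The median SD of these genes was 0.24 among knockout arrays and 0.25 among wild-type arrays, and that of all tested genes was 0.28 in each genotype.

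The families differed in how many of their genes were higher or lower. The hnRNPs had 7 of 9 tested genes higher in the knockout and a median difference of 0.18. The helicases had 14 of 20 lower and a median of -0.20, and the RBM proteins 8 of 9 lower and a median of -0.24. All 3 tested PRPF genes were lower, with a median of -0.14, and 3 of 4 CELF and MBNL genes, with a median of -0.16. The SF3 and U2AF genes, 4 higher and 4 lower, the SR proteins, 2 higher and 3 lower, and the Sm and LSm proteins, 7 higher and 9 lower, had medians of -0.02, -0.01 and -0.07. With each array left out in turn, the median ran from 0.13 to 0.22 for the hnRNPs, from -0.23 to -0.12 for the helicases and from -0.24 to -0.13 for the RBM proteins, where it was -0.13 without knockout replicate 3 and -0.14 without knockout replicate 1. It ran from -0.25 to -0.09 for the PRPF genes and from -0.28 to -0.07 for the CELF and MBNL genes. In the other families it took both signs, from -0.09 to 0.06 for SF3 and U2AF, from -0.17 to 0.16 for SR proteins and from -0.16 to 0.05 for Sm and LSm proteins. Of the 5 SR genes, 0 were lower without wild-type replicate 4. These are counts and medians without a test of a family, and genes of a family are not replicates.

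**Figure D1:**
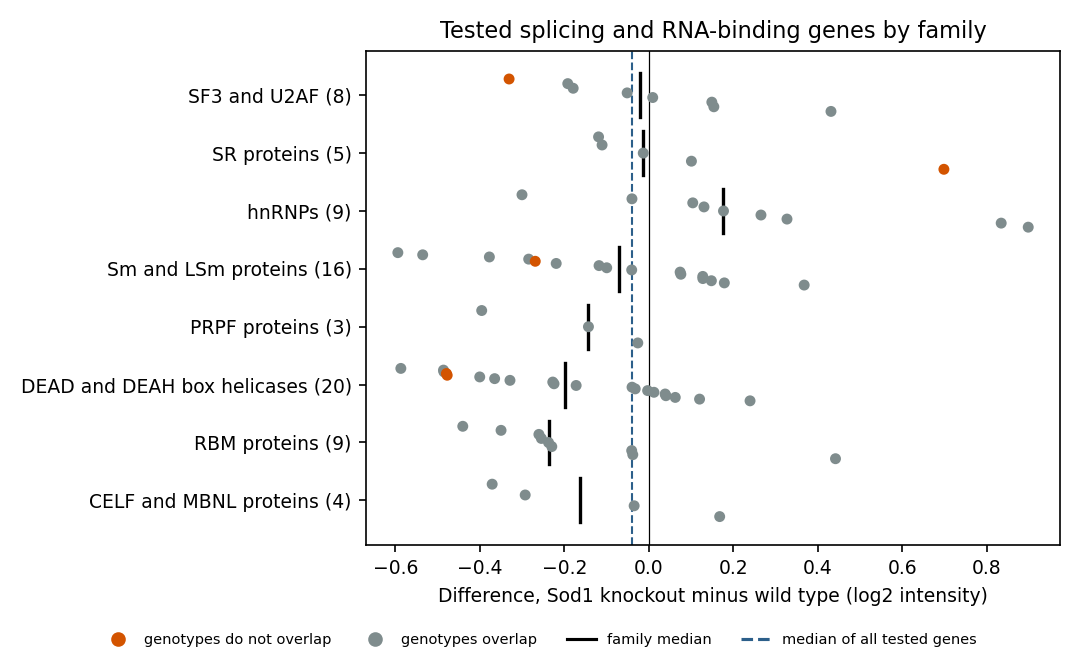
Difference in log2 intensity between Sod1 knockout and wild type (x axis) for the 74 tested genes, 1 point per gene, by family (rows, number tested in brackets). Black bars are family medians, from -0.24 for RBM proteins to 0.18 for hnRNPs, the dashed line is the median of all tested genes at -0.04, and orange points are the 5 genes whose genotypes did not overlap.

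The genotypes did not overlap in 5 of the 74 genes, or 6.76%, against 4.58% of all tested genes. Ddx20, Dhx15, Sf3b5 and Snrpa were lower and Srsf5 was higher; over all tested genes 2.80% were separated as lower and 1.78% as higher. The count moved with the arrays used. Without knockout replicate 2 it was 18 genes (24.3%), 5 higher and 13 lower, against 15.3% of all tested genes. Without knockout replicate 1 it was 9 genes (12.2%, against 7.30% of all tested genes), without wild-type replicate 3 it was 10 (13.5%, against 7.22%), and without both replicates numbered 2 it was 20 (27.0%, against 22.3%). Leaving out any other array gave 6 or 7 of the 74 genes. It was 6 without wild-type replicate 1, beside 134 higher and 177 lower of all 3822 tested genes. It was 6 without wild-type replicate 2, beside 132 and 214. In both settings the share of the 74 genes was no larger than that of all tested genes. It was 6 without knockout replicate 3 (86 and 137), 7 without knockout replicate 4 (105 and 178) and 7 without wild-type replicate 4 (115 and 198). Fewer arrays leave fewer values that could overlap, so each count is read only against the share or counts beside it.

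Ddx20, also called Gemin3, is the helicase of the SMN complex that loads Sm rings onto small nuclear RNAs, and it had the smallest p of the 74 genes. Its log2 intensity was 8.35, 8.20, 8.21 and 8.41 in knockout replicates 1 to 4, against 8.78, 8.69, 8.998 and 8.61 in wild-type replicates 1 to 4. Every knockout array was below every wild-type array, with a gap of 0.20 between the nearest values. The means were 8.29 ± 0.10 in knockout and 8.77 ± 0.17 in wild-type muscle (SD, n = 4 each), a difference of -0.48 (95% confidence interval -0.80 to -0.16, limma adjusted p 0.457). With each array left out in turn the difference stayed between -0.53 and -0.40. Other genes of snRNP assembly were set beside it. Of 5 tested genes of the SMN complex and its partners, 2 were higher, 3 lower and 0 passed, with a median of -0.14. Smn1, the core of the complex, stood at 8.77 ± 0.22 in knockout and 9.12 ± 0.27 in wild-type muscle, and Prmt5, which methylates Sm proteins, at 8.77 ± 0.16 and 9.14 ± 0.27. Gemin4, another SMN complex protein, differed by -0.14.

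Dhx15, the helicase that takes spent spliceosomes apart, stood at 8.85, 8.92, 8.52 and 8.94 in knockout replicates 1 to 4 and at 9.30, 9.64, 9.0 and 9.21 in wild-type replicates 1 to 4. The genotypes did not overlap, but only 0.06 separated knockout replicate 4 from wild-type replicate 3. The means were 8.81 ± 0.20 and 9.29 ± 0.27 (SD, n = 4 each), a difference of -0.48 (-0.88 to -0.08, limma adjusted p 0.494). Srsf5, an SR protein, was the 1 separated gene that was higher. It stood at 7.88, 7.49, 7.54 and 7.97 in knockout and at 7.35, 7.32, 7.15 and 6.26 in wild-type muscle, so wild-type replicate 4 lay far below the rest and the nearest values of the genotypes were 0.14 apart. The difference was 0.70 (0.12 to 1.27, limma adjusted p 0.487), a 1.62-fold ratio, and 0.44 without wild-type replicate 4. A dimmer second Srsf5 probe, below the filter, differed by 0.01 and its genotypes overlapped.

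The promoter windows of Ddx20, Srsf5 and Dhx15 are shown because these are the separated genes with 1 promoter entry in the RefSeq table (GRCm38.p6), 250 bases before to 50 after the annotated start, written 5′ to 3′ on the gene's strand. Capitals mark matches, on either strand, to 6 short motifs: the GC box GGGCGG, the CCAAT box CCAAT, the ETS core CCGGAAG, the E-box CACGTG, the TATA box TATAAA and the core of the antioxidant response element, TGACNNNGC, which NRF2 binds.
Ddx20, chr3:105687522-105687821, minus strand: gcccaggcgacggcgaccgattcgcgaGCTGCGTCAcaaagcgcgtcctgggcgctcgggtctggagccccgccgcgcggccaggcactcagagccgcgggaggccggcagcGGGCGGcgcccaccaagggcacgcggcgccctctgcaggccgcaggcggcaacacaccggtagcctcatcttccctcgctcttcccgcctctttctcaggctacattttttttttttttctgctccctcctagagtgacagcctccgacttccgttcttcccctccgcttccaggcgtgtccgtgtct
Srsf5, chr12:80945249-80945548, plus strand: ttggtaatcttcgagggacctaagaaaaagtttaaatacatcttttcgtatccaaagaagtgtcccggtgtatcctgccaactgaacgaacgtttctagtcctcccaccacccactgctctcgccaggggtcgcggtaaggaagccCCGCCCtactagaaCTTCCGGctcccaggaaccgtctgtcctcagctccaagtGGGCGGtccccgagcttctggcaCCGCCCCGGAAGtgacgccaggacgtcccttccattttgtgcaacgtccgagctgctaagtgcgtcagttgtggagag
Dhx15, chr5:52190497-52190796, minus strand: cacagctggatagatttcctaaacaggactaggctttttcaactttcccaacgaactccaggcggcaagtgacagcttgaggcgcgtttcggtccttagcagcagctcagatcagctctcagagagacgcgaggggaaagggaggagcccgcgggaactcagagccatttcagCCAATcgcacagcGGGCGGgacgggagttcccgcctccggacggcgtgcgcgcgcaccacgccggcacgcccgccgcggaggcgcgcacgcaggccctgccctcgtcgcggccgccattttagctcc
The Ddx20 window held 1 GC box and 1 match to the antioxidant response core, the Srsf5 window 3 GC boxes and 2 ETS cores, one of which overlaps a GC box, and the Dhx15 window 1 GC box and 1 CCAAT box. Of the 116 genes 103 had entries in the table, with 134 windows in all. The GC box lay in 56.0% of those windows, against 35.7% of all 32851 windows in the table, and the ETS core in 22.4% against 8.86%. The CCAAT box was in 45.5% against 37.4%, the E-box in 9.70% against 7.15%, the TATA box in 11.9% against 13.6%, and the antioxidant response core in 13.4% against 12.4%. The 32851 windows were not chosen for genes measured or bright on these arrays, so the sets are not matched. A match describes the letters of the window and is not a bound site.

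**Figure D2:**
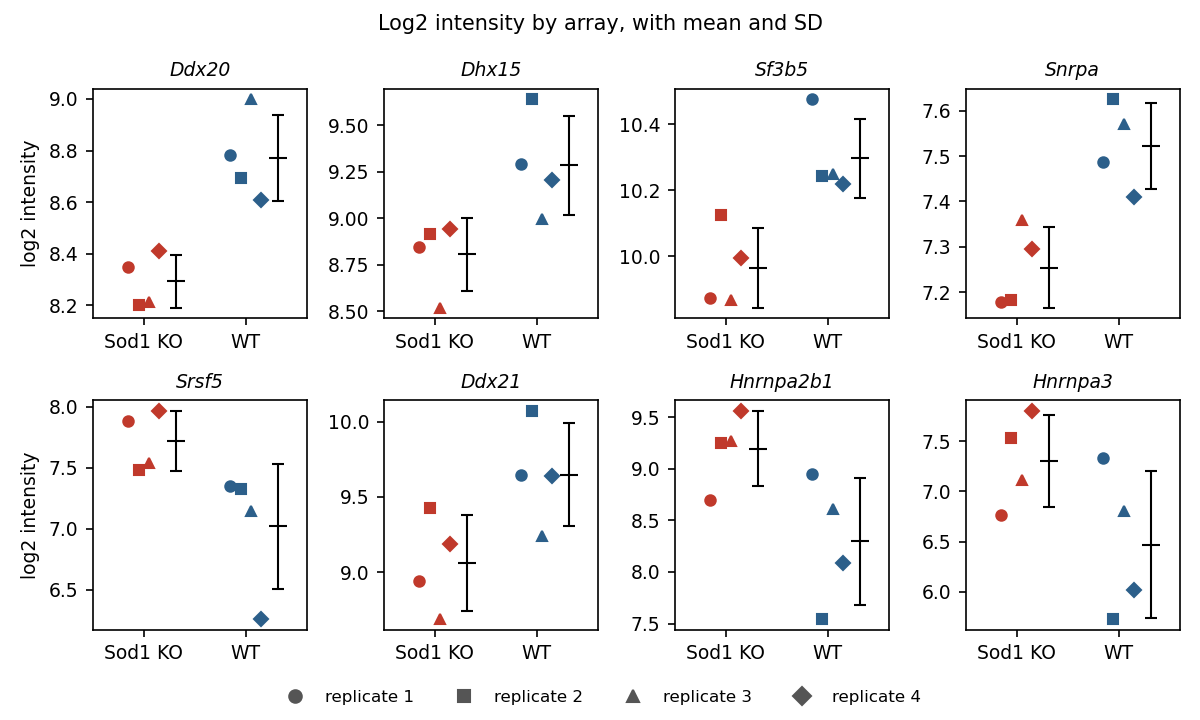
Log2 intensity (y axis, a separate range in each panel) in each of the 4 Sod1 knockout arrays (red, left) and 4 wild-type arrays (blue, right) for 8 genes, with the marker shape giving the replicate and the bar the mean and SD. Ddx20, Dhx15, Sf3b5, Snrpa and Srsf5 show no overlap, whereas the genotypes overlap for Ddx21, Hnrnpa2b1 and Hnrnpa3.

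Of the 20 tested helicases, 6 were lower at an unadjusted p under 0.05, or 30%, against 5.02% of all tested genes, and 0 were higher, against 4.32%. Ddx21 and Ddx18, nucleolar helicases of ribosome assembly, differed by -0.59 (-1.08 to -0.09, limma adjusted p 0.494) and -0.49 (-0.93 to -0.04, limma adjusted p 0.51). Ddx21 stood at 8.94, 9.43, 8.69 and 9.19 in knockout and at 9.64, 10.07, 9.24 and 9.64 in wild-type muscle. Its highest array was wild-type replicate 2 and its lowest knockout replicate 3, and knockout replicate 2 lay above wild-type replicate 3. Ddx18 had the same extremes, at 9.97 in wild-type replicate 2 and 8.77 in knockout replicate 3. Ddx3x, an X-linked helicase of translation initiation, stood at 9.19, 8.95, 8.99 and 8.91 in knockout and at 9.44, 9.10, 9.48 and 9.97 in wild-type muscle, where only knockout replicate 1 exceeded any wild-type array. A second Ddx3x probe, below the filter, differed by -0.60. Ddx24 differed by -0.36, and its second tested probe by -0.41.

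The lean of the helicases was smaller without either of 2 arrays. Wild-type replicate 2 was the highest of the 8 arrays for 8 of the 20 helicases, or 40%, against 21.5% of all tested genes, and knockout replicate 3 was the lowest for 6, or 30%, against 16.2%. Without wild-type replicate 2 the family median was -0.12 with 13 of 20 lower, and without knockout replicate 3 it was -0.12 with 12 of 20 lower. Leaving out any other array gave medians from -0.23 to -0.16. Ddx6, a decay factor of P-bodies, was the helicase with the smallest p on the higher side, at 10.03 ± 0.15 in knockout and 9.80 ± 0.20 in wild-type muscle. Ddx1, part of the tRNA ligase complex, stood at 10.66 ± 0.18 and 10.62 ± 0.11 (interval of the difference -0.29 to 0.37).

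Ddx17, a helicase that also acts with muscle transcription factors, showed the widest range of the tested helicases. It was 7.30, 9.16, 8.34 and 8.58 in knockout replicates 1 to 4 and 8.14, 8.55, 8.22 and 8.23 in wild-type replicates 1 to 4. Knockout replicates 1 and 2 were the lowest and the highest of all 8 arrays, and the difference of 0.06 had an interval from -0.70 to 0.82. Dhx9, RNA helicase A, lay below the filter and was not tested. It stood at 4.74, 4.70, 5.87 and 5.47 in knockout and at 4.68, 4.67, 4.72 and 4.28 in wild-type muscle, so knockout replicates 3 and 4 were higher than the other 6 arrays.

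Among snRNP proteins, Sf3b5, a small subunit of the SF3B complex of the U2 snRNP, stood at 9.87, 10.12, 9.87 and 9.996 in knockout and at 10.47, 10.24, 10.25 and 10.22 in wild-type muscle. All knockout arrays were lower, and 3 of the 4 wild-type arrays lay between 10.22 and 10.25. The difference was -0.33 (-0.64 to -0.02, limma adjusted p 0.518). Its partner Sf3b4 differed by -0.18, and U2af1l4, a relative of the small U2AF subunit, by 0.43 (-0.01 to 0.87), at 7.65 ± 0.22 in knockout and 7.22 ± 0.33 in wild-type muscle.

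Snrpa, the A protein of the U1 snRNP, was separated on its brightest probe and not on its other probes. The brightest probe stood at 7.18, 7.18, 7.36 and 7.30 in knockout and at 7.49, 7.62, 7.57 and 7.41 in wild-type muscle, a difference of -0.27 (-0.56 to 0.02, limma adjusted p 0.548). Both dimmer probes lay below the filter and had higher knockout means, by 0.40 and 0.39, with overlapping genotypes. They were highest in knockout replicates 1 and 2, at 7.22 and 7.39 on the first and 7.21 and 7.25 on the second. The separation of Snrpa was thus seen on 1 of its 3 probes. Snrpa1, a U2 snRNP protein, stood at 7.35, 8.11, 7.25 and 7.90 in knockout and at 8.37, 8.80, 7.91 and 7.92 in wild-type muscle. Knockout replicate 2 lay inside the wild-type range, and the difference was -0.59 (-1.19 to 0.00, limma adjusted p 0.53).

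Of the Sm ring proteins, Snrpb stood at 10.09 ± 0.15 in knockout and 9.91 ± 0.17 in wild-type muscle, and Snrpd2 at 11.38 ± 0.11 and 11.50 ± 0.21. Snrpf, at 9.57 ± 0.32 and 9.20 ± 0.53, was lowest in wild-type replicate 2, at 8.56. Lsm14a, a P-body protein rather than a ring subunit, stood at 8.90, 9.89, 9.38 and 9.24 in knockout and at 10.20, 9.81, 9.64 and 9.90 in wild-type muscle, where knockout replicate 2 was again the array inside the wild-type range. Its difference was -0.54 (-1.04 to -0.03, limma adjusted p 0.518). Of the PRPF proteins, Prpf8, the scaffold of the catalytic centre, stood at 8.84 ± 0.15 in knockout and 8.98 ± 0.21 in wild-type muscle. A dimmer Prpf8 probe, below the filter, differed by 0.17, against -0.14 for the first. Prpf19, a ubiquitin ligase of the active spliceosome, stood at 11.48 ± 0.31 and 11.51 ± 0.24. Prpf6, which bridges the snRNPs of the tri-snRNP, differed by -0.40 and was highest in wild-type replicate 2, at 10.85 against 9.10 to 10.07 in the other 7 arrays; without that array it differed by -0.12.

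The hnRNPs held the highest differences of the 74 genes. Hnrnpa2b1, which binds pre-mRNA and sorts RNA for transport, stood at 8.69, 9.24, 9.27 and 9.56 in knockout and at 8.95, 7.54, 8.61 and 8.08 in wild-type muscle. Wild-type replicates 2 and 4 were the lowest arrays, and wild-type replicate 1 exceeded knockout replicate 1. The difference was 0.90 (0.20 to 1.59, limma adjusted p 0.465), a 1.86-fold ratio, and ran from 0.65 to 1.11 with each array left out. Hnrnpa3, a close relative, stood at 6.77, 7.53, 7.11 and 7.80 in knockout and at 7.33, 5.73, 6.80 and 6.02 in wild-type muscle. The same wild-type arrays were lowest, and the difference was 0.83 (0.01 to 1.65, limma adjusted p 0.526). Hnrnpa3 was above the median in 4 arrays, the fewest the filter allows, and most of these were knockout arrays. It was not tested under the stricter filter of 6 arrays. Genes of the hnRNP A family have processed pseudogenes, which a probe may not tell apart from the gene.

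The low values in wild-type replicates 2 and 4 recurred in Hnrnph1, chosen after its values were seen, but the order of the other arrays did not. Its brightest probe stood at 7.88, 8.94, 8.81 and 8.56 in knockout and at 8.90, 7.28, 8.93 and 8.02 in wild-type muscle, a difference of 0.27 (-0.60 to 1.13). Wild-type replicates 2 and 4 and knockout replicate 1 were the lowest 3 arrays on that probe and on the other tested probes, which differed by 0.57 and 0.47. The dimmest Hnrnph1 probe, below the filter, went the other way and differed by -0.43. Hnrnpl, also chosen after its values were seen, did not share the low wild-type replicate 2. It was 7.82, 6.45, 6.95 and 7.74 in knockout and 6.44, 7.50, 7.17 and 6.54 in wild-type muscle, and knockout replicate 1 was its highest array. The second Hnrnpa2b1 probe, which the platform annotation assigns to another RefSeq transcript of the gene, lay below the filter and differed by 0.12. Hnrnpab stood at 11.73 ± 0.29 in knockout and 12.03 ± 0.19 in wild-type muscle, Hnrnpa1 at 7.69 ± 0.26 and 7.56 ± 0.39, and Hnrnpdl at 7.09 ± 0.22 and 6.92 ± 0.16. Hnrnpu, below the filter, differed by -0.12.

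**Figure D3:**
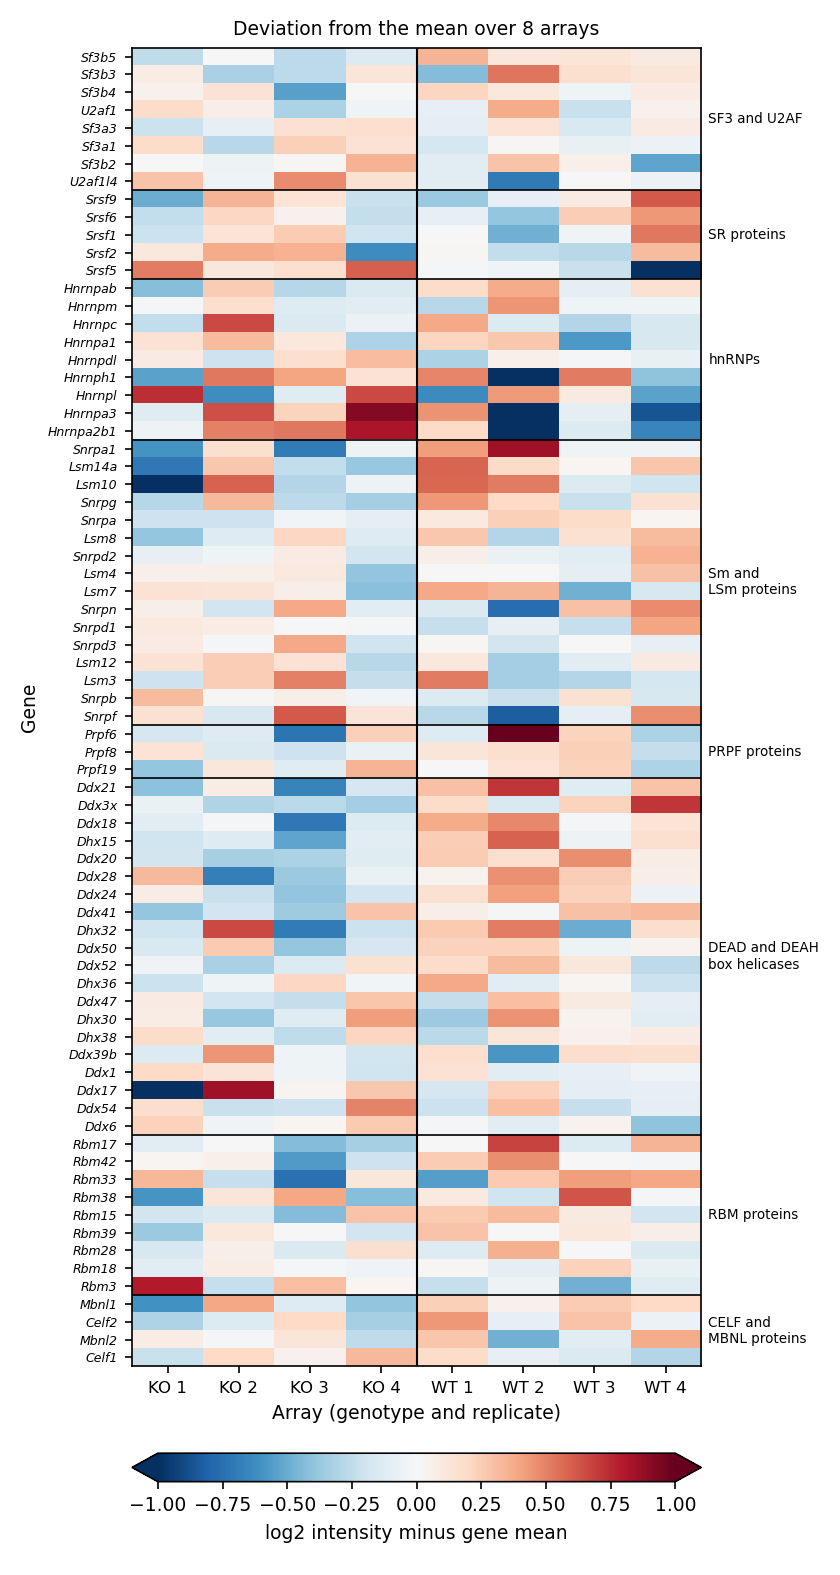
Log2 intensity of each of the 74 tested genes minus its mean over the 8 arrays (colour, limited to 1 in either direction), with genes in rows by family and, within a family, by difference, and arrays in columns, knockout left of the line. Lsm10 and Ddx17 lie far below their gene means in KO 1, as do Hnrnph1, Hnrnpa3 and Hnrnpa2b1 in WT 2.

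The SR proteins other than Srsf5 had overlapping genotypes. Srsf2 stood at 9.88 ± 0.47 in knockout and 9.78 ± 0.28 in wild-type muscle, Srsf6 at 7.39 ± 0.22 and 7.50 ± 0.36, and Srsf9 at 7.24 ± 0.37 and 7.36 ± 0.42. The intervals of their differences were -0.45 to 0.66, -0.58 to 0.35 and -0.69 to 0.45, all of which include 0. Srsf10, an SR protein that represses splicing when dephosphorylated, was below the filter and differed by -0.05. The kinases that phosphorylate SR proteins had 3 of 4 tested genes higher, 1 lower and 0 past the threshold. Clk4 was the lower one, at 7.94, 7.55, 6.92 and 7.49 in knockout and 7.99, 7.999, 8.34 and 8.14 in wild-type muscle. No value overlapped, and its difference of -0.64 had a limma adjusted p of 0.465. Srpk3, the muscle-specific SR protein kinase, differed by 0.56, with wild-type replicate 2 the lowest array at 8.31, and Srpk1 by 0.09.

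The muscle splicing regulators MBNL and CELF showed no passing difference. Mbnl1 stood at 11.63, 12.62, 12.10 and 11.84 in knockout and at 12.47, 12.28, 12.49 and 12.44 in wild-type muscle. The wild-type arrays were within 0.21 of one another, whereas the knockout arrays spanned 0.99, and knockout replicate 2 was the highest of all 8. The difference was -0.37 (-0.85 to 0.10, limma adjusted p 0.6), and it was -0.56 without knockout replicate 2 and -0.23 without knockout replicate 1. Mbnl2 stood at 11.05 ± 0.17 in knockout and 11.08 ± 0.39 in wild-type muscle. Celf1 stood at 8.03 ± 0.23 and 7.86 ± 0.20, and Celf2 at 9.62 ± 0.24 and 9.91 ± 0.26, with a second Celf2 probe at -0.33 beside -0.29 for the first.

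Among RBM proteins, Rbm3, a cold-inducible RNA-binding protein, was the 1 tested gene higher in the knockout. It stood at 10.65, 9.62, 10.15 and 9.87 in knockout and at 9.62, 9.80, 9.37 and 9.73 in wild-type muscle, with knockout replicate 1 the highest and knockout replicate 2 inside the wild-type range. The difference was 0.44 (-0.06 to 0.95, limma adjusted p 0.564). Rbm17, a factor of alternative 3′ splice site choice, stood at 8.48 ± 0.20 and 8.92 ± 0.36, and Rbm42 at 9.49 ± 0.29 and 9.84 ± 0.23, with -0.33 on a second tested Rbm42 probe. Rbm38, which acts on mRNA stability and in muscle differentiation, stood at 9.97 ± 0.46 in knockout and 10.23 ± 0.35 in wild-type muscle. Its dimmer probe, below the filter, differed by 0.19.

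Probes of the same gene were a further check on these differences. Of the 116 genes, 31 had several probes, and 10 had several tested probes, which differed in the same direction for 7. The 3 others, Ddx47, Lsm12 and Prpf19, had differences near 0 on each tested probe, from -0.03 to 0.13. Probes of Celf2, Ddx24, Rbm39 and Rbm42 lay within 0.05 of each other, whereas those of Snrpn, chosen after its values were seen, gave 0.07 and 0.62. Both Hnrnpk probes were higher, by 0.73 and 0.58, and both Prpf40b probes lower, by -0.53 and -0.75, all below the filter; these genes too were chosen after their values were seen.

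**Figure D4:**
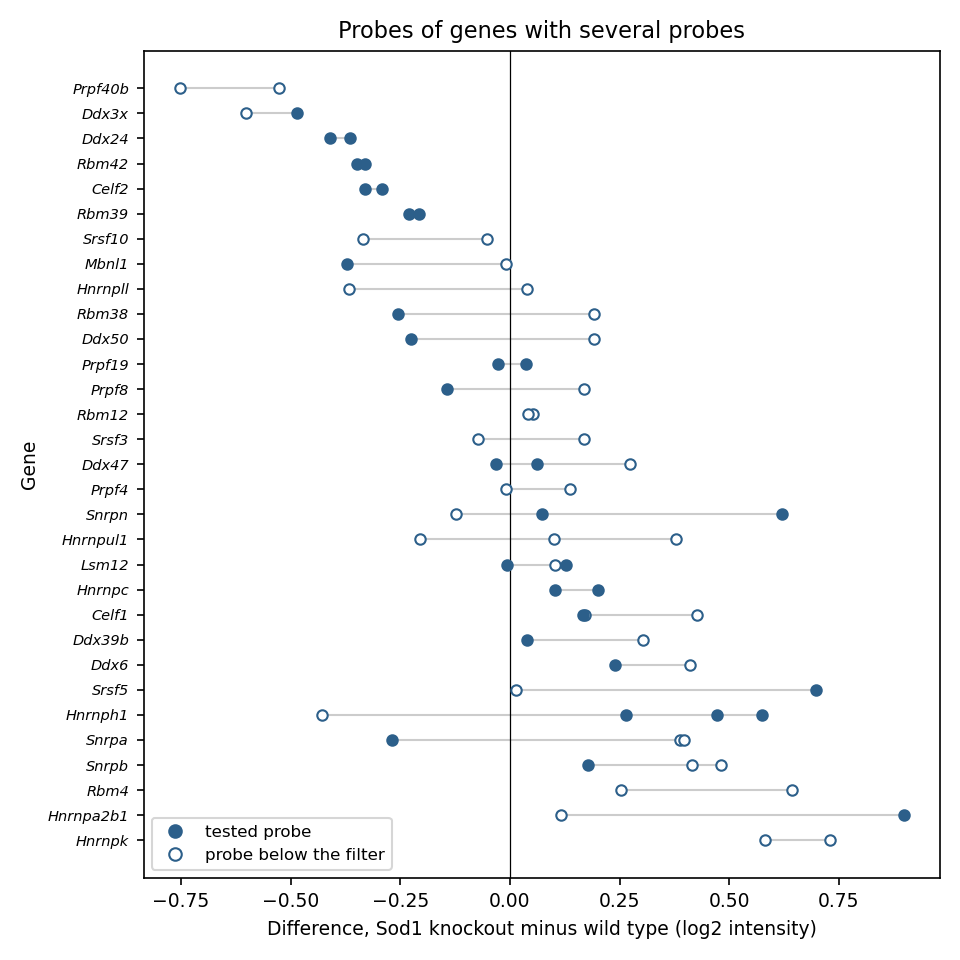
Difference in log2 intensity between Sod1 knockout and wild type (x axis) for every probe of the 31 genes with several probes (rows), with filled points for tested probes and open points for probes below the filter. Probes of Rbm42, Ddx24 and Celf2 lie close together, and those of Snrpa, Hnrnph1 and Snrpn fall on both sides of 0.

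Genes of the same pathways that the symbols do not catch gave the same picture of no passing gene. Of 22 other tested spliceosome and splicing genes, 6 were higher, 16 lower and 0 passed, with a median of -0.12; Sfpq, a paraspeckle protein, differed by -0.53, Tial1, which binds U-rich introns, by -0.46 and Txnl4a, a U5 snRNP protein, by 0.21. Of 8 tested genes of the exon junction complex, mRNA export and nonsense-mediated decay, 1 was higher, 7 lower and 0 passed, with a median of -0.19, and Casc3, Alyref and Upf2 differed by -0.27, -0.25 and -0.23. All 7 tested genes of 3′ end processing and poly(A) binding were lower and 0 passed, with a median of -0.22. Nudt21, which sets the choice of poly(A) site, stood at 7.14 ± 0.25 in knockout and 7.60 ± 0.38 in wild-type muscle, while Cpsf1 and Cstf1 differed by -0.33 and -0.24. Of 11 tested decay genes, 3 were higher, 8 lower and 0 passed, with a median of -0.15. Exosc8, a subunit of the RNA exosome, stood at 7.17, 6.78, 6.68 and 7.06 in knockout and at 7.36, 7.35, 7.45 and 7.53 in wild-type muscle. Its genotypes did not overlap, with a difference of -0.50 and a limma adjusted p of 0.465; Exosc1, another subunit, differed by -0.49 and Edc4, a decapping scaffold, by -0.37.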

How the data were processed

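Total EDL RNA was extracted on columns, amplified to biotin-labelled cRNA and hybridised to Illumina arrays, per the labels' protocols. The authors' deposited log2 intensities were used; all 8 columns hold the same sorted values, from 3.21 to 14.19, so they had been quantile normalized, and a shift of all transcripts could not be seen. Base 2 was judged from this range. The sources used here do not state how background was corrected or probes were selected. A second table with 8 columns of values not normalized was not used, because its column names match no sample's labels.

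The platform annotation gives 8403 of the 9232 probes 1 gene name, 3 several and 826 none; all 116 genes matched the GRCm38.p6 gene table by Entrez number. Probes above their array's median in at least 4 arrays (4698) entered 1 linear model per probe with a genotype term (limma 3.58.1, R 4.3.3, lmFit and eBayes, two-sided, Benjamini-Hochberg over all tested probes, threshold 0.05). Precision is limited by the number of arrays, with a median standard error of 0.20 over the 74 tested genes. The procedure was run on simulated data in which the planted changes were larger than any difference among the 74 tested genes. Recovery of differences of the size seen here was not tested. Each SD covers a genotype's 4 arrays, and intervals are limma's 95% intervals.

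Named genes were the 10 of smallest p in each direction, all without overlap, the 3 of smallest p and the brightest of each family, the 5 of widest range, a list of well-known regulators and 3 genes per related list. Rbm20, Rbm24, Mbnl3, Ddx5 and Sf3b1 of that list were not analysed here. The genes and lists were chosen with earlier results of these data known. Alternatives covered the filter, moderation, array weights, replicate block, cyclic loess, a mean per gene and each array left out.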

Additional observations from a re-analysis of the deposited data

Results flagged for a closer look

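In 3 of 82 groups of 4 arrays, 41 named genes in each genotype, 1 array lay far from the other 3 by Dixon's test, where chance flags about 1 in 20 groups. All 3 are in the wild type. U2af1l4 was 6.73 in wild-type replicate 2 and 7.33 to 7.44 in the other wild-type arrays. Sf3b5 was 10.47 in wild-type replicate 1 and 10.22 to 10.25 in the others. Dhx9, below the filter, was 4.28 in wild-type replicate 4 and 4.67 to 4.72 in the others.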

How the results depend on the processing

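The count of 0 genes past the threshold stayed at 0 under every alternative run, including array weights and each array left out, although over all probes calls numbered 4 higher with array weights, 33 higher and 3 lower without knockout replicate 2, and 48 higher and 11 lower without both replicates numbered 2. The median difference of the tested genes was -0.04, ran from -0.12 to -0.05 with each array left out, against -0.04 to -0.02 for all tested genes, and was -0.124 without both replicates numbered 2. The count of genes without overlap, 5, ran from 6 to 18 with each array left out and was 20 without both replicates numbered 2. The share of all tested genes without overlap rose as well. It was 4.58% with all arrays, 15.3% without knockout replicate 2 and 22.3% without both replicates numbered 2. The labels do not say whether equal replicate numbers pair the samples. The correlations of same-numbered deviations were -0.28, -0.15, 0.24 and -0.34. Differently numbered arrays were not set beside them, so they cannot decide the question. With the replicate block the count stayed at 0 and the median at -0.04. With array weights the median was -0.11, a setting for which no median over all tested genes is given here. Among the 41 named genes, some with differences near 0 turned sign. With array weights these were Ddx17 (-0.0055) and Srsf2 (-0.024), and with a mean per gene Prpf19 (0.0054). Without both replicates numbered 2 they were Ddx1 (-0.024), Ddx17 (-0.12), Srsf2 (-0.071) and, untested, Srsf10 (0.059). With each array left out the differences ran from -0.020 to 0.11 for Ddx1, from -0.21 to 0.41 for Ddx17, from -0.041 to 0.25 for Hnrnpa1, from -0.20 to 0.084 for Mbnl2, from -0.14 to 0.099 for Prpf19, from -0.0055 to 0.33 for Srsf2, from -0.26 to 0.016 for Srsf6, from -0.26 to 0.066 for Srsf9 and, among untested genes, from -0.24 to 0.053 for Hnrnpu and from -0.18 to 0.13 for Srsf10. The cause was not tested.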
